A study of Phaseolus vulgaris with 18 samples.

Results

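Rubisco and phosphoribulokinase carry out committed steps of carbon fixation, and rubisco activase frees blocked rubisco. In the common bean (Phaseolus vulgaris), 5 genes listed under these enzyme names were followed here in 2 lines and at 3 ages. They were taken by gene name from a table of 25124 genes: a rubisco small subunit (Phvul.004G073400), a pair of rubisco activases (Phvul.001G234300 and Phvul.010G016000), a phosphoribulokinase (Phvul.002G133100) and a gene described as phosphoribulokinase / uridine kinase family (Phvul.003G180800). All 5 passed the filter on low counts, as did 22805 genes in all. RNA came from A18-1, called the golden line here, whose green pods turn gold as they grow to market size, and from Renaya, called the green line, whose pods stay green until they ripen. Pods of both lines were sampled at 10, 14 and 18 days after flowering (DAF), giving 6 groups of 3 libraries that the submitters call independent biological repeats. Both lines were grown in a climate chamber and received no treatment. The labels do not say whether plants or pods were pooled, and the 2 lines differ in the rest of their genomes as well as in pod colour.

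The tissue was given in more than 1 way. The study's design text names the pod wall, a label field names leaf, the extraction text mentions an adipose type, and the design text was followed. Phvul.009G203400, described as AGAMOUS-like 8, a regulator of fruit wall growth in Arabidopsis, was present in every library at 30.1 to 222 FPKM, a read-pair count corrected for transcript length and library size. Other genes of that description were low, Phvul.008G027800 at 0 to 6.41 FPKM and Phvul.004G042450 at 0 to 0.227 FPKM. Among 4 oleosin genes, which coat oil bodies in seeds, Phvul.008G144500 stood at 2.44 to 76.6 FPKM and the rest were near 0 in most libraries. A wider list of 148 seed storage and late embryo genes, taken by description, was not low. At 10 DAF it summed to 10763 to 11880 FPKM in golden and 5731 to 6364 FPKM in green libraries. The sums were 6163 to 7707 and 7976 to 10430 FPKM at 14 DAF, and 4900 to 8645 and 4900 to 7315 FPKM at 18 DAF. In bulk tissue, fewer green cells and less RNA per cell cannot be told apart.

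Library totals ran from 48757139 to 74377200 counts. The golden libraries at 18 DAF were the least alike: across genes, replicate 2 correlated with replicate 1 at a Pearson r of 0.914 in log2 CPM (counts scaled to library size), with replicate 3 at 0.950, and with the golden libraries of 14 DAF at 0.926 to 0.946. Replicate 2 also held the highest small subunit, Phvul.001G234300 and phosphoribulokinase levels of the group, and green replicate 3 at 18 DAF held the lowest of its own. Results at 18 DAF are therefore given with and without these libraries where the call or the size depended on them.

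Rubisco joins carbon dioxide to ribulose bisphosphate in the Calvin cycle. Its catalytic large subunit is encoded in the chloroplast genome and its small subunit in the nucleus, and plastid chaperonins and RbcX proteins help the large subunits fold and assemble. Rubisco activase, an ATP-driven remodelling protein, removes sugar phosphates that block the active site. Phosphoribulokinase makes the ribulose bisphosphate that rubisco uses, is switched on in light by thioredoxin, and is held inactive in darkness in a complex with glyceraldehyde-3-phosphate dehydrogenase and CP12. Green fruit walls, bean pods among them, fix carbon, some of it released by the respiring seeds inside.

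The orthology terms deposited with the table match 2 of the 5 names, are missing for 1 and go against 2. Phvul.004G073400 carried the orthology term of the rubisco small chain and Phvul.002G133100 that of phosphoribulokinase. Phvul.001G234300 carried the description rubisco activase and no orthology term, and Phvul.010G016000 had the same description but the orthology term of a phenylpropanoid enzyme. The place of both among the activases rests on the description alone. Phvul.003G180800 carried the term of uridine kinase, in pyrimidine metabolism, so the table's annotation makes it a nucleoside kinase and not the Calvin cycle enzyme. It is called the uridine kinase family gene from here on. The deposited table gives no coordinates for these 5 genes.

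The rubisco small subunit was 4.91-fold higher in the golden than in the green line at 14 DAF. Phvul.004G073400 stood at 5512, 3577 and 5718 FPKM in the golden line at 10 DAF and at 1850, 1680 and 1763 FPKM in the green line. At 14 DAF the golden libraries held 4965, 6613 and 5705 FPKM and the green libraries 813, 1023 and 1680 FPKM. No green library reached a golden library at either age. At 18 DAF the golden libraries spread over 1225, 7177 and 1842 FPKM and the green over 1668, 2444 and 427 FPKM, and the lines overlapped. In edgeR's quasi-likelihood test with Benjamini-Hochberg adjustment over all tested genes, the log2 fold change of golden over green was 1.49 at 10 DAF (SE 0.61, adjusted p = 0.076), 2.30 at 14 DAF (SE 0.63, adjusted p = 0.0098) and 1.36 at 18 DAF (SE 0.61, adjusted p = 0.16). Only the value at 14 DAF passed the threshold of 0.05, and it passed in each of 6 fits that left out 1 library of the groups compared. Without golden replicate 2 the log2 value at 18 DAF was 0.13, and without green replicate 3 it was 0.92. In order of mean FPKM the groups ran from golden 14, 10 and 18 DAF to green 10, 18 and 14 DAF, and each group overlapped the next.

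Phvul.004G073400 shared its pattern with a further pair of genes that have the same description, Phvul.004G064800 and Phvul.004G073450. Across the 18 libraries its FPKM was 1.17 to 1.37 times that of the first and 1.48 to 1.62 times that of the second, so the ratios stayed nearly level while the sum of the 3 copies ran from 1078 to 17147 FPKM. The counting could have divided reads among such similar copies, so the level of each copy is uncertain. Together the 3 copies took 0.790 ± 0.197% of all counts in the golden line at 10 DAF, 0.911 ± 0.129% at 14 DAF and 0.544 ± 0.515% at 18 DAF (mean ± SD, n = 3). In the green line the shares were 0.292 ± 0.017%, 0.192 ± 0.072% and 0.240 ± 0.156%. The golden mean at 18 DAF rests on replicate 2, at 1.14%: replicates 1 and 3 held 0.200% and 0.296%, within the green range of 0.0714% to 0.379%.

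**Figure D1:**
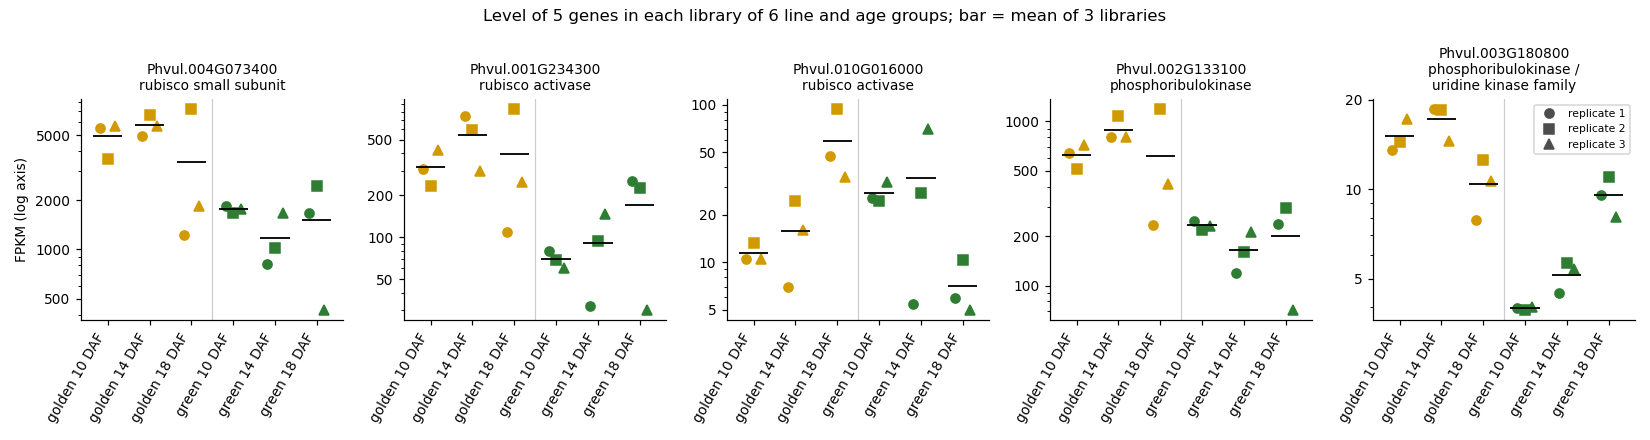
FPKM (log axis) of the 5 genes in each of 18 libraries, by line and age; symbols are replicates, colours the lines, and bars the mean of 3 libraries. The small subunit, Phvul.001G234300 and phosphoribulokinase lie higher in the golden line at 10 and 14 DAF and spread widely at 18 DAF, Phvul.010G016000 is high in golden and low in green libraries at 18 DAF, and the uridine kinase family gene climbs with age in the green line.

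The activase Phvul.001G234300 was higher in the golden line at 10 and 14 DAF, by 4.65-fold and 5.99-fold. Its golden libraries held 308, 233 and 423 FPKM at 10 DAF, against 79.1, 68.9 and 60.2 FPKM in the green line (log2 2.22, SE 0.78, edgeR adjusted p = 0.041). At 14 DAF they held 741, 593 and 299 FPKM against 32.1, 94.4 and 148 FPKM (log2 2.58, SE 0.79, edgeR adjusted p = 0.017). The lines did not overlap at either age. At 18 DAF the golden values of 108, 829 and 250 FPKM lay across the green values of 255, 226 and 30.1 FPKM, and the difference did not pass (log2 1.39, SE 0.76, edgeR adjusted p = 0.24). Omission of any of the 6 libraries ended the call at 10 DAF, with adjusted p from 0.052 to 0.118. At 14 DAF the call ended without golden replicate 1 (edgeR adjusted p = 0.053) or without green replicate 1 (0.068). Without golden replicate 2 the log2 value at 18 DAF was 0.17. In order of mean FPKM the groups ran from golden 14, 18 and 10 DAF to green 18, 14 and 10 DAF, and each group overlapped the next.

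The other gene described as an activase, Phvul.010G016000, had a different pattern. It was 9.30-fold higher in the golden line at 18 DAF, where the golden libraries held 47.4, 93.3 and 34.7 FPKM and the green libraries 5.89, 10.3 and 4.98 FPKM (log2 3.22, SE 0.69, edgeR adjusted p = 0.0063). The call held in all 6 fits that left out 1 of these libraries, and the log2 value was 2.66 without golden replicate 2 (edgeR adjusted p = 0.022). At 10 DAF the golden values of 10.5, 13.3 and 10.5 FPKM all lay under the green values of 25.5, 24.5 and 32.1 FPKM, but the difference did not pass (log2 -1.25, SE 0.64, edgeR adjusted p = 0.15). At 14 DAF the green libraries ran over 5.45, 27.6 and 70.1 FPKM, across golden values of 7.00, 24.5 and 15.9 FPKM (log2 -1.09, SE 0.64, edgeR adjusted p = 0.19). That value depended on single green libraries: it was -0.098 without green replicate 3 (edgeR adjusted p = 0.91) and -1.59 without green replicate 1 (adjusted p = 0.031). In order of mean FPKM the groups ran golden 18, green 14, green 10, golden 14, golden 10 and green 18 DAF. Green 10 DAF lay above golden 14 DAF, and golden 10 DAF above green 18 DAF, by a fraction of 1 FPKM between the nearest libraries, and the other neighbours overlapped.

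Phvul.010G016000 changed with age in opposite directions in the lines. From 10 to 18 DAF it rose 5.92-fold in the golden line (log2 2.57, SE 0.67, edgeR adjusted p = 0.016) and fell in the green line (log2 -1.90, SE 0.66, edgeR adjusted p = 0.036). The difference between these changes was itself tested as a line by age interaction and passed, at a log2 of 4.47 (SE 0.94, edgeR adjusted p = 0.0094). The interaction from 14 to 18 DAF was 4.31 (SE 0.94, edgeR adjusted p = 0.018). Both interactions passed in each of 12 fits that left out 1 library, and the second ran from 3.33 without green replicate 3 of 14 DAF to 4.81 without green replicate 1 of 14 DAF. The separate changes were less firm. The golden rise missed the threshold without golden replicate 1 (edgeR adjusted p = 0.061) or replicate 3 of 10 DAF (0.055). The green fall passed in 1 of 6 such edgeR fits. Golden replicate 2 of 18 DAF bore on the sizes: without it the golden rise was 3.97-fold (log2 1.99, edgeR adjusted p = 0.047). The interaction from 10 to 18 DAF was then 3.92 (edgeR adjusted p = 0.014).

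Another gene described as rubisco activase, Phvul.008G192400, was not among the 5 and is set beside them here. It stood at 227 ± 43.7 FPKM in the golden and 173 ± 7.49 FPKM in the green line at 10 DAF, and differed at 14 DAF, at 280 ± 74.8 against 98.6 ± 18.8 FPKM (mean ± SD, n = 3; log2 1.49, SE 0.38, edgeR adjusted p = 0.0064). It also differed at 18 DAF, at 242 ± 95.6 against 100.4 ± 53.4 FPKM (log2 1.42, SE 0.38, edgeR adjusted p = 0.021), a call that ended without golden replicate 2. The 3 genes described as activases were summed by that description, and the orthology term of Phvul.010G016000 goes against it. Of their summed FPKM, Phvul.001G234300 made up 56.9 ± 3.10% in the golden line at 10 DAF and 25.8 ± 3.62% in the green line. At 14 DAF the shares were 63.6 ± 5.58% and 38.1 ± 9.55%, with no overlap of the lines, and at 18 DAF 49.8 ± 15.8% and 55.7 ± 13.3%, with overlap. The main transcript of the 3 was thus Phvul.001G234300 in the golden libraries at 10 and 14 DAF, and Phvul.008G192400 in the green libraries at 10 DAF. Phvul.010G016000 made up 2.17 ± 0.818% and 10.1 ± 1.46% at 10 DAF, and 9.67 ± 4.32% and 3.67 ± 2.72% at 18 DAF, so its share was higher in the green line at the first age and in the golden line at the last.

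**Figure D2:**
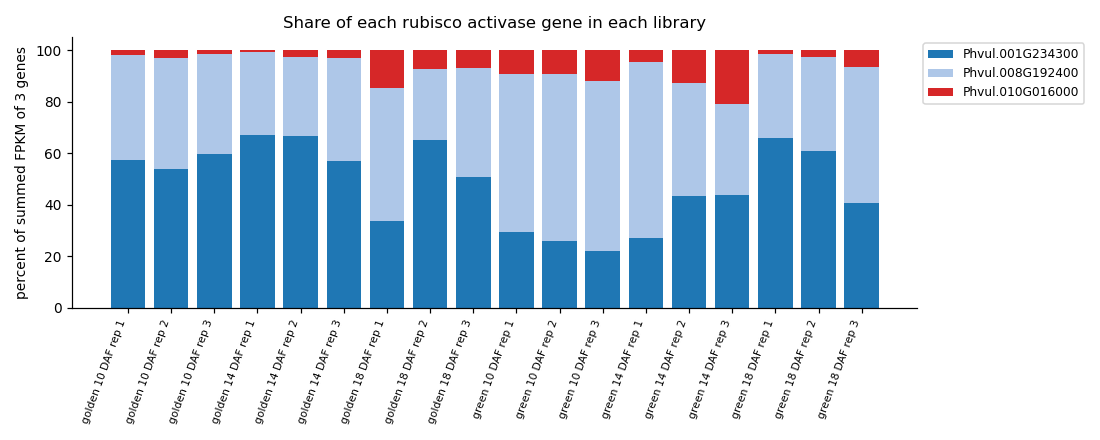
Percent of the summed FPKM of 3 genes described as rubisco activase in each of 18 libraries, stacked by gene. Phvul.001G234300 takes 53.7% to 67.0% in golden libraries at 10 and 14 DAF and 22.1% to 29.4% in green libraries at 10 DAF.

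The log2 ratio of Phvul.001G234300 to Phvul.010G016000, both described as activases, was compared between lines within ages, on the log2(FPKM + 1) scale. It was higher in the golden line by 3.35 at 10 DAF and 3.36 at 14 DAF, and lower by 1.60 at 18 DAF (golden minus green -1.60). The mean over ages was 1.70, at the edge of a two-sided exact permutation test within ages (p = 0.0415, adjusted over 2 ratios p = 0.0415, 8000 arrangements, smallest possible p = 0.00025), and averages differences of opposite sign. The ratio of Phvul.002G133100 to Phvul.003G180800 differed by -0.27, 0.90 and 1.41 at the 3 ages, with a mean of 0.68 (exact permutation test, p = 0.02625, adjusted p = 0.0415). Neither call held under every setting: over the alternatives for the 2 ratios, 17 results kept the call and 29 lost it.

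Phosphoribulokinase, Phvul.002G133100, was higher in the golden line at all 3 ages. Golden libraries held 644, 513 and 721 FPKM at 10 DAF against 249, 217 and 231 FPKM in the green line, a 2.71-fold difference (log2 1.44, SE 0.52, edgeR adjusted p = 0.046). At 14 DAF they held 802, 1072 and 800 FPKM against 120, 161 and 212 FPKM, 5.41-fold (log2 2.44, SE 0.54, edgeR adjusted p = 0.0028). The lines were apart at both ages. At 18 DAF the golden values of 235, 1184 and 418 FPKM and the green values of 236, 296 and 71.1 FPKM overlapped, yet the test passed at 3.43-fold (log2 1.78, SE 0.53, edgeR adjusted p = 0.034). That last call ended without golden replicate 2, where the log2 value was 0.81 (edgeR adjusted p = 0.22), without green replicate 3 (1.38, adjusted p = 0.10) and without green replicate 1 (1.93, adjusted p = 0.061). Omission of any of 6 libraries ended the call at 10 DAF (edgeR adjusted p from 0.061 to 0.128), and none ended that at 14 DAF. In order of mean FPKM the groups ran from golden 14, 10 and 18 DAF to green 10, 18 and 14 DAF. Golden 14 DAF lay above golden 10 DAF without overlap, though that difference did not pass the test (log2 0.49, SE 0.51, edgeR adjusted p = 0.65), and the later neighbours overlapped.

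The uridine kinase family gene, Phvul.003G180800, had the lowest mean FPKM of the 5 in 3 of 6 groups and had the smallest coefficient of variation between replicates in each group, 1.18% to 22.8%. It stood at 13.6, 14.4 and 17.2 FPKM in the golden and 3.97, 3.93 and 4.02 FPKM in the green line at 10 DAF, a 3.81-fold difference (log2 1.93, SE 0.18, edgeR adjusted p = 5.2e-06). At 14 DAF the values were 18.6, 18.5 and 14.5 FPKM against 4.46, 5.64 and 5.38 FPKM (log2 1.72, SE 0.17, edgeR adjusted p = 1.8e-05). Golden and green libraries were far apart at these ages. At 18 DAF they overlapped, with 7.87, 12.6 and 10.7 FPKM in the golden and 9.56, 10.99 and 8.05 FPKM in the green line (log2 0.26, SE 0.17, edgeR adjusted p = 0.34). The green level rose by a log2 of 1.32 from 10 to 18 DAF (SE 0.17, edgeR adjusted p = 1.0e-04) and by a log2 of 0.94 from 14 to 18 DAF (SE 0.17, edgeR adjusted p = 0.0089). In the golden line the level was lower at 18 than at 14 DAF in every library but did not pass (log2 -0.52, SE 0.17, edgeR adjusted p = 0.061), and without golden replicate 2 of 18 DAF it did (-0.74, adjusted p = 0.0091). The lines differed in their change, with an interaction of -1.46 from 14 to 18 DAF (SE 0.24, edgeR adjusted p = 0.0065) and of -1.67 from 10 to 18 DAF (SE 0.24, edgeR adjusted p = 9.2e-04). By mean FPKM the order was golden 14, 10 and 18 DAF, then green 18, 14 and 10 DAF. Golden 14 overlapped golden 10 DAF and golden 18 overlapped green 18 DAF, and the other neighbours did not overlap.

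**Figure D3:**
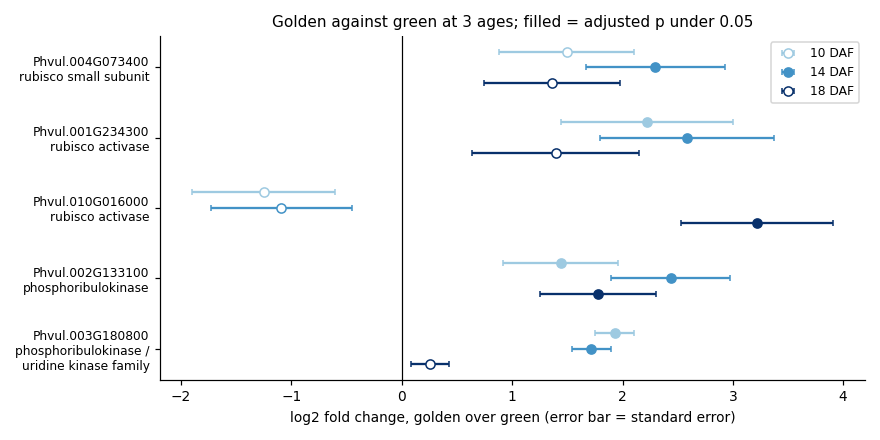
Log2 fold change of golden over green for the 5 genes at 10, 14 and 18 DAF with its standard error; filled points passed an edgeR adjusted p of 0.05. The value of Phvul.010G016000 goes from -1.25 and -1.09 to 3.22, and that of the uridine kinase family gene from 1.93 and 1.72 to 0.26.

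At 10 DAF 3 of 5 were called higher in the golden line and 0 lower, where 17.1% of all tested genes were called higher and 15.5% lower. With any 1 of the 6 libraries left out, 1 of 5 was called at 10 DAF, the uridine kinase family gene. The shares of all genes in this paragraph are those of the fit of all libraries. At 14 DAF 4 of 5 were called higher and 0 lower, against 20.4% and 21.2% of all genes. At 18 DAF 2 of 5 were called higher and 0 lower, against 7.99% and 6.99%. A list of 5 chosen with such results known is a description of these genes and no test. With golden replicate 2 left out, 1 member was called at 18 DAF. For comparison the median log2 difference over all genes was 0.02, -0.01 and -0.02 at the 3 ages.

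The calls between ages are set beside the shares of all genes. In the golden line 0 members were called from 10 to 14 DAF (edgeR; 0 at an unadjusted p under 0.05, and 0 by DESeq2 and by limma), where 1.3% of all genes were. From 14 to 18 DAF 0 were called (2 at an unadjusted p under 0.05, 2 by DESeq2, 1 by limma), against 10.6% of all genes, and from 10 to 18 DAF 1 was called, against 20.7%. In the green line 0 were called from 10 to 14 DAF (1 at an unadjusted p under 0.05, 0 by DESeq2 and limma), against 8.27% of all genes. From 14 to 18 DAF 1 green member was called, against 6.95%, and from 10 to 18 DAF 2 were, against 34.9%. The interaction was called for 0 members from 10 to 14 DAF (edgeR; 0 at an unadjusted p under 0.05, and 0 by DESeq2 and by limma), for 2 from 14 to 18 DAF and for 2 from 10 to 18 DAF, where 1.15%, 7.38% and 9.9% of all genes were called.

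The calls with age were all of Phvul.010G016000 and the uridine kinase family gene. For the small subunit, Phvul.001G234300 and phosphoribulokinase no change with age and no interaction passed in the fit of all libraries. Golden replicate 2 of 18 DAF bore on this for the small subunit: without it, the golden level was lower at 18 DAF than at 14 DAF by a log2 of -1.77 (edgeR adjusted p = 0.033) and than at 10 DAF by -1.56 (adjusted p = 0.042), and the interaction from 14 to 18 DAF was -2.18 (adjusted p = 0.043). With it, these log2 values were -0.52, -0.31 and -0.94. Without that library 3 members were called in the golden line from 10 to 18 DAF and 2 from 14 to 18 DAF. The shares of all genes called in that fit are not given here.

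The small subunit, Phvul.001G234300 and phosphoribulokinase varied together from library to library. Phvul.004G073400 and Phvul.002G133100 had a Pearson r of 0.977 over the 18 libraries in log2 CPM, and 0.988 after the group means were removed. For Phvul.001G234300 the r was 0.893 with the small subunit and 0.924 with phosphoribulokinase, and 0.895 and 0.921 within groups. The uridine kinase family gene had an r of 0.710 to 0.832 with these, and 0.766 to 0.837 within groups. Phvul.010G016000 had an r of -0.178 to 0.248 with the other 4 over all libraries, but 0.339 to 0.531 within groups. The libraries share their lines and ages, so these values are descriptions and carry no test. The same 2 libraries at 18 DAF, golden replicate 2 and green replicate 3, mark the top and the bottom of the small subunit and of phosphoribulokinase over the whole study.

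**Figure D4:**
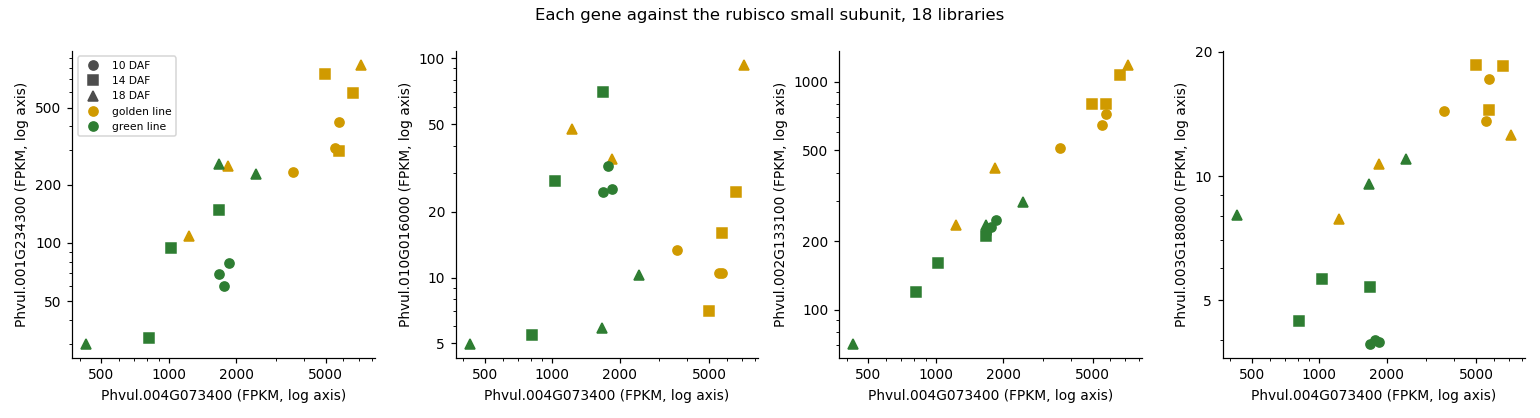
FPKM of each of 4 genes against the small subunit Phvul.004G073400 in 18 libraries, both on log axes; colour gives the line and symbol the age. Phosphoribulokinase follows the small subunit closely (r = 0.977 in log2 CPM), while Phvul.010G016000 follows it less (r = 0.191 over all libraries and 0.531 after the group means were removed).

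The genes most like each member over the 18 libraries were sought by Pearson r among 12409 described genes with a mean of at least 5 FPKM. Next to phosphoribulokinase came sedoheptulose-bisphosphatase (Phvul.001G240200, r = 0.997) of the Calvin cycle, the PETC protein of photosynthetic electron transfer (Phvul.005G109400, 0.995), a ribulose-5-phosphate epimerase (Phvul.003G188800, 0.994), a transketolase (Phvul.007G006600, 0.989) and an aldolase-type TIM barrel protein (Phvul.005G051800, 0.987). The small subunit had its 2 copies first, then ferredoxin-NADP reductase 1 (Phvul.003G263200, 0.984), the A subunit of chloroplast glyceraldehyde-3-phosphate dehydrogenase (Phvul.001G098100, 0.983) and a chloroplast RNA-binding protein (Phvul.001G223800, 0.982).

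The genes nearest Phvul.001G234300 were alanine:glyoxylate aminotransferase (Phvul.006G029100, r = 0.979), serine transhydroxymethyltransferase 1 (Phvul.003G286600, 0.974), the TIM barrel protein Phvul.005G051800 that was also near phosphoribulokinase (0.964), a LON domain protein (Phvul.001G010700, 0.957) and hydroxypyruvate reductase (Phvul.007G019300, 0.954). Phvul.010G016000 had no gene as close. Its nearest were a haem oxygenase-like protein (Phvul.003G113400, r = 0.871), a pseudouridine synthase family protein (Phvul.004G045400, 0.782), a cupin (Phvul.007G113400, 0.778), an auxin-binding protein (Phvul.007G168600, 0.760) and a cytochrome P450 of family 707 (Phvul.001G022100, 0.759). The uridine kinase family gene was nearest an aleurain-like protease (Phvul.009G227100, r = 0.982), a bHLH protein (Phvul.010G070600, 0.977), a pathogenesis-related protein (Phvul.009G135800, 0.977), an alpha-glucan phosphorylase (Phvul.006G064100, 0.977) and alfin-like 5 (Phvul.005G156200, 0.976).

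Around the 5 genes, 11 others had a description naming rubisco or phosphoribulokinase, and 9 of them were tested. At 10 DAF 0 were called higher and 0 lower in edgeR (3 at an unadjusted p under 0.05; DESeq2 called 2 higher and 1 lower, limma 0 higher and 1 lower). At 14 DAF 6 were higher and 1 lower (median log2 0.86), and at 18 DAF 3 were higher and 0 lower (median 0.57). The count higher at 18 DAF was 0 without golden replicate 2 and 1 without green replicate 3. Both other small subunit copies were called at 14 DAF, Phvul.004G064800 at a log2 of 2.16 (SE 0.60, edgeR adjusted p = 0.011). A pair of rubisco methyltransferase family proteins, which add methyl groups to rubisco or to other plastid proteins, were higher at 14 and 18 DAF: Phvul.002G169400 stood at 29.5 against 12.7 FPKM at 14 DAF and Phvul.006G005700 at 26.1 against 15.1 FPKM. The gene called lower at 14 DAF, Phvul.003G044700, is the other phosphoribulokinase / uridine kinase family gene, at 2.39 FPKM in the golden and 4.98 FPKM in the green line, and was named after its values were seen.

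Among other Calvin cycle enzymes, more were called higher than lower in the golden line at each age. Of 20 tested, 5 were higher and 2 lower at 10 DAF (median log2 0.87), 12 higher and 2 lower at 14 DAF (1.43), and 10 higher and 0 lower at 18 DAF (1.09). Leaving out any of the 6 libraries took the count higher at 10 DAF to 2 and the count lower to 0 or 1, and the count at 18 DAF was 3 without golden replicate 2 and 4 without green replicate 3. Summed over the 20 genes, FPKM ran from 7754 to 9636 in golden and from 2659 to 3349 in green libraries at 14 DAF.

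Fructose-bisphosphate aldolase 2 (Phvul.011G039100), which joins triose phosphates, stood at 2510 ± 496 against 354 ± 138 FPKM at 14 DAF (mean ± SD, n = 3; log2 2.83, SE 0.58, edgeR adjusted p = 0.0019). The epimerase Phvul.003G188800, which supplies the substrate of phosphoribulokinase, was higher at all 3 ages, with a log2 of 1.68 at 14 DAF (SE 0.36, edgeR adjusted p = 0.0024). A second aldolase 2 gene, Phvul.009G003100, differed between the lines in kind: golden libraries held 10.2 to 30.9 FPKM at the 3 ages, and green libraries 0 to 0.175 FPKM. Glyceraldehyde-3-phosphate dehydrogenase A (Phvul.001G098100), which reduces the product of rubisco, was called at 14 DAF (log2 1.90, SE 0.46, edgeR adjusted p = 0.0050) and 18 DAF (2.83-fold, SE 0.46 on the log2 scale, adjusted p = 0.040). A CP12 gene, Phvul.007G214200, whose product binds phosphoribulokinase in the dark complex, was at 75.1 to 136 FPKM in golden and 0.436 to 0.719 FPKM in green libraries at 10 DAF, and was named after its values were seen. In the opposite direction, phosphoglycerate kinase Phvul.005G050800, also named after its values were seen, was lower in the golden line at 10 DAF (log2 -0.88, SE 0.31, edgeR adjusted p = 0.040) and 14 DAF (-1.37, SE 0.31, adjusted p = 0.0032).

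Photorespiration is the pathway that recovers carbon after rubisco has taken oxygen in place of carbon dioxide. Among genes matched to it by description, more were called higher than lower in the golden line at each age. Of 23 tested, 7 were called higher in golden pods and 1 lower at 10 DAF (median log2 0.76), 11 higher and 3 lower at 14 DAF (0.60), and 4 higher and 2 lower at 18 DAF (0.60). Beside these counts and those of the other lists, 17.1%, 20.4% and 7.99% of all genes were called higher at the 3 ages. The shares of all genes called lower were 15.5%, 21.2% and 6.99%. The first enzyme of the pathway, 2-phosphoglycolate phosphatase 1 (Phvul.008G051700), was higher at all 3 ages, at 328 ± 64.8 against 48.0 ± 23.1 FPKM at 14 DAF (log2 2.78, SE 0.53, edgeR adjusted p = 0.0011). Hydroxypyruvate reductase (Phvul.007G019300), near the end of the pathway, was also called at all 3 ages, with a log2 of 2.82 at 14 DAF (SE 0.59, edgeR adjusted p = 0.0019). Serine transhydroxymethyltransferase 1 (Phvul.003G286600) was higher at 14 DAF (log2 3.08, SE 0.80, edgeR adjusted p = 0.0070), while serine hydroxymethyltransferase 4 (Phvul.003G051100) was lower (log2 -0.83, SE 0.23, edgeR adjusted p = 0.0099). Both were listed by description, and whether each product acts in photorespiration was not tested. At 10 DAF the count higher was 2 or 3 on omission of any library but golden replicate 2. At 18 DAF it was 2 without golden replicate 2 or green replicate 1, 1 without green replicate 2 or 3, and 9 without golden replicate 1.

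Assembly factors and plastid chaperonins were called in both directions. Of 7 tested, 1 was higher and 3 lower at 10 DAF (median log2 -0.83), and 3 were higher and 2 lower at 14 DAF (-0.30). At 18 DAF 0 were called in either direction in edgeR (2 at an unadjusted p under 0.05; DESeq2 called 1 higher and limma 0). All 3 RbcX genes, whose products assemble rubisco large subunits, were higher at 14 DAF, among them Phvul.006G146300 at 4.17 to 6.50 FPKM in golden and 0 to 0.0661 FPKM in green libraries. Among the general plastid chaperonins, chaperonin 10 (Phvul.001G120500) was lower in the golden line at 10 DAF (log2 -1.62, SE 0.31, edgeR adjusted p = 0.0014) and 14 DAF (-2.09, SE 0.31, adjusted p = 2.5e-04). Chaperonin 20 (Phvul.009G224900) and chaperonin-60 alpha (Phvul.011G082600) were lower at 10 DAF, with log2 values of -1.21 (SE 0.30, edgeR adjusted p = 0.0078) and -1.32 (SE 0.35, adjusted p = 0.010). At 14 DAF their values of -0.51 and -0.30 did not pass (edgeR adjusted p = 0.18 and 0.51).

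**Figure D5:**
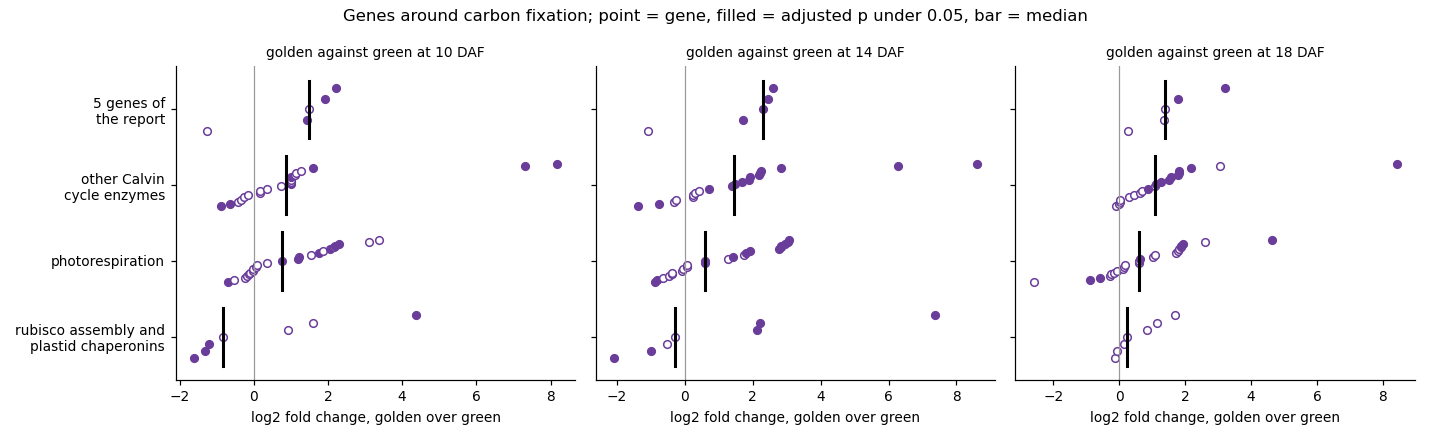
Log2 fold change of golden over green at 3 ages for the 5 genes, 20 other Calvin cycle enzymes, 23 photorespiration genes and 7 assembly factors and chaperonins; each point is a gene, filled where the edgeR adjusted p was under 0.05, and bars are medians. The median of the Calvin cycle enzymes is 0.87, 1.43 and 1.09, and that of the assembly factors and chaperonins -0.83, -0.30 and 0.22.

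Light-harvesting and clock genes moved with the same comparisons. Of 30 antenna protein genes, which gather light for the photosystems, 17 were higher at 10 DAF, 27 at 14 DAF and 27 at 18 DAF, and 0 were lower in edgeR, DESeq2 or limma. The count at 10 DAF was 11 without green replicate 2 or 3, and at 18 DAF it was 10 without golden replicate 2 and 13 without green replicate 3. Of 10 circadian clock genes, 9, 10 and 4 were higher in the golden line at the 3 ages and 0 lower in the same tools, with 2 higher at 18 DAF without golden replicate 3 and 1 without green replicate 1. Their summed FPKM was 304 to 405 in golden against 110 to 119 in green libraries at 10 DAF, 364 to 464 against 136 to 155 at 14 DAF, and 218 to 289 against 174 to 239 at 18 DAF. The labels used here give no time of day for the harvests, and the part of clock phase in the differences of the 5 genes was not tested. Seed storage and late embryo genes were called in both directions, with 14 of 108 tested higher and 12 lower at 10 DAF, 11 and 27 at 14 DAF, and 5 and 4 at 18 DAF. The shares called higher were under the 17.1%, 20.4% and 7.99% of all genes, and the shares called lower lay on both sides of the 15.5%, 21.2% and 6.99%. Among 17 tested MADS-box genes of flower and fruit identity, 3 were higher and 0 lower at 10 DAF, 4 higher and 1 lower at 14 DAF, and 0 higher and 1 lower at 18 DAF, with shares higher of 17.6% and 23.5% at the first 2 ages, near those of all genes. The part of seed tissue or of pod stage in the differences of the 5 genes was not tested.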

How the data were processed

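Poly(A) RNA of 18 libraries was sequenced as read pairs, per the labels' protocols. The authors deposited estimated counts and FPKM per gene in 1 table, per the file headers; all estimated counts were whole. Aligner, counting program, build and strand setting: not given in the sources used here. The 635 assembled genes without a name held 2.20% to 3.97% of the counts; they stayed in the library totals and the fits.

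Counts were tested with edgeR 4.0.16 (R 4.3.3): expression filter (22805 genes kept, 2319 dropped), TMM scaling, and 1 quasi-likelihood fit of all libraries with a mean per group (common dispersion 0.155, 12 residual degrees of freedom), tested on simulated data. P-values are two-sided and were adjusted by Benjamini-Hochberg over all tested genes; calls have an adjusted p under 0.05. Alternatives were DESeq2 1.42.0, limma 3.58.1 on log2(FPKM + 1) and log2(FPKM + 0.1), other scaling and filters, the groups compared alone, and omission of each library. Every pair of replicates differed beyond sampling noise (smallest chi-square per gene 51.3). Ratios of 2 genes were tested by exact permutation within ages.

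The 5 genes, the lists and the tests were chosen with earlier results of these data known. Named list genes are up to 4 per list, those called in most line comparisons, then by mean FPKM. Phosphoglycerate kinases and unrelated TIM barrel proteins that the photorespiration pattern matched were removed, by their annotation, after the table had been seen. The main fit did not pair libraries by replicate number. Pairing by number was examined between the lines within each age, and not across ages. Large subunit transcripts of the chloroplast are poorly captured by poly(A) selection and were not analysed here. A reference table matched no gene identifier, so no coordinates or sequences are given.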

Additional observations from a re-analysis of the deposited data

Results flagged for a closer look

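For Phvul.010G016000, described as rubisco activase, the change with age differed between the lines by the test of the difference itself. The golden line's log2 change minus the green line's was 4.31 from 14 to 18 DAF (SE 0.94, edgeR adjusted p = 0.018) and 4.47 from 10 to 18 DAF (SE 0.94, edgeR adjusted p = 0.0094). Without green replicate 3 of 14 DAF the first was 3.33 (edgeR adjusted p = 0.038). All 3 golden libraries at 18 DAF lay above all golden libraries of the earlier ages, and all 3 green libraries at 18 DAF lay below all green libraries of 10 DAF.

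The uridine kinase family gene Phvul.003G180800 also changed differently with age. Its log2 change in the golden line minus that in the green line was -1.46 from 14 to 18 DAF (SE 0.24, edgeR adjusted p = 0.0065) and -1.67 from 10 to 18 DAF (SE 0.24, edgeR adjusted p = 9.2e-04). The golden mean went from 17.2 to 10.4 FPKM between 14 and 18 DAF and the green mean from 5.16 to 9.53 FPKM.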

How the results depend on the processing

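Across the alternatives, 848 log2 values of the 5 genes kept their direction and side of the threshold, 32 lost a call, 20 gained it and 30 changed sign. No value that changed sign was called in the fit of all libraries. The cause of these shifts was not tested. Each of the 5 genes had at least 473 counts in every library.

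Same-numbered golden and green libraries of the same age had residual correlations of -0.164 to 0.098, and other pairs -0.168 to 0.206. Libraries of different ages were not compared in this way. The replicate block was used as an alternative only. With the replicate block 1 member was called at 18 DAF and 1 in the golden line from 14 to 18 DAF. The shares of all genes called with the block are not given here. The activase and kinase ratios with the block were 1.70 and 0.68, with adjusted p = 0.105 each by exact permutation. The log2 value of phosphoribulokinase in the golden line from 10 to 18 DAF was -0.013 with the block.

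The shares of all genes called under the following alternatives are not given here. With the groups compared alone, 5 members were called at 10 DAF, 1 at 18 DAF, 0 in the green line from 14 to 18 DAF and 1 for the interaction from 14 to 18 DAF. The 5 at 10 DAF include Phvul.010G016000, whose golden libraries all lay under the green ones at that age. In the fit of all libraries 17.1% of all genes were called higher and 15.5% lower in the golden line at that age. Either limma fit called 1 at 18 DAF, 1 in the golden line from 14 to 18 DAF and 2 from 10 to 18 DAF. DESeq2 called 2 in the golden and 2 in the green line from 14 to 18 DAF, and a mean of at least 5 FPKM gave 1 in the golden line. Leaving out 1 library gave 1 to 1 at 10 DAF, 1 to 2 at 18 DAF, 0 to 2 and 0 to 3 in the golden line from 14 and from 10 to 18 DAF, and 1 to 2 in both green comparisons.

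The ratios of the activases and of the kinases were 1.69 and 0.56 with a pseudocount of 0.1 (exact permutation, adjusted p = 0.084 both), 1.69 and 0.55 on CPM (0.091 both), and 1.53 and 0.51 by medians (0.304 and 0.084). Without 1 library they ran from 1.44 to 1.91 and from 0.51 to 0.80.

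Sign changes under limma, with a pseudocount of 1 and of 0.1, were -0.14 and -0.14 for Phvul.001G234300 and -0.34 and -0.34 for Phvul.002G133100 in the golden line from 10 to 18 DAF, and -0.26 and -0.30 for Phvul.010G016000 in the green line from 10 to 14 DAF. Without 1 library Phvul.001G234300 ran from -0.73 to 0.97 (golden, 10 to 18 DAF), -1.46 to 0.23 (golden, 14 to 18), -0.14 to 0.76 (green, 10 to 14) and -0.023 to 0.87 (interaction, 10 to 14). Phvul.002G133100 ran from -0.82 to 0.57 (golden, 10 to 18), -1.31 to 0.079 (golden, 14 to 18), -0.52 to 0.24 (green, 10 to 18), -0.013 to 0.74 (green, 14 to 18) and -0.63 to 0.73 (interaction, 10 to 18). Phvul.004G073400 ran from -1.56 to 0.095 (golden, 10 to 18), -0.67 to 0.26 (green, 10 to 18), -0.075 to 0.86 (green, 14 to 18) and -1.36 to 0.36 (interaction, 10 to 18). Phvul.010G016000 ran from -0.010 to 0.80 (golden, 10 to 14), -0.74 to 0.79 (green, 10 to 14) and -0.34 to 1.19 (interaction, 10 to 14).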

Other observations

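Within the green line 34.9% of all genes were called between 10 and 18 DAF, in either direction. Of 7 assembly factors and chaperonins 0 were higher and 4 lower at 18 DAF (median log2 -0.84), and of 10 clock genes 8 were higher and 0 lower (0.77). Of 30 antenna genes 0 were higher and 3 lower (-0.32), a smaller share than among all genes. In the golden line, where 20.7% of all genes were called, the same comparison gave 0 higher and 1 lower, 0 higher and 3 lower, and 1 higher and 0 lower. For the clock genes the difference between the lines was itself called in 5 of 10, all negative.

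The small subunit to activase ratio was taken as FPKM of Phvul.004G073400 over the summed FPKM of the 3 genes described as activases. It was 8.87 ± 1.22 in the golden line at 10 DAF, 7.60 ± 3.20 at 14 DAF and 4.39 ± 1.09 at 18 DAF (mean ± SD, n = 3). In the green line it was 6.55 ± 0.297, 5.51 ± 1.17 and 5.55 ± 1.14. The lines did not overlap at 10 DAF and overlapped at 14 and 18 DAF. At 18 DAF the golden mean was the lower one.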
